A study of Mus musculus with 15 samples.

Results

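Trp53 and 7 genes that act with it were followed in genomic DNA of mouse liver tumors by array comparative genomic hybridization (aCGH), a method that counts DNA copies by letting differently dyed sample and control DNA bind the same short probes. The 8 genes were Trp53, its activating kinases Atm and Chek2, its inhibitors Mdm2 and Mdm4, its relatives Trp63 and Trp73, and its target Cdkn1a. Their probes were taken by the gene name in the array files, which gave 13 of the 40726 autosomal probes and at least 1 probe for each gene. Trp53, Trp63, Trp73 and Cdkn1a had 1 probe each, Mdm2, Mdm4 and Chek2 had 2 each, and Atm had 3. The value throughout is the aCGH ratio, the log2 of tissue over reference signal, in which 0 is the median autosomal probe of that array.

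Sampled were 5 hepatocellular carcinomas (HCC) and 3 unaffected livers, all from 3 mice of the strain C57BL/6.129-Mad2flox,p53flox,AlbuminCre, and the reference was normal C57BL/6.129 liver DNA of the opposite sex, wild type per the study. Albumin-Cre acts in hepatocytes, so other cells of a sample are expected to keep intact alleles. All 3 mice carried 2 floxed copies of Mad2l1, a spindle checkpoint gene that the labels call Mad2, and no group with intact Mad2l1 was analyzed here. Mouse 3151, a female of 16.4 months, was Mad2(f/f) p53(f/+) and gave HCC 3151-T1, HCC 3151-T2 and liver 3151-L. Mice 3760 and 4033, males of 13.8 and 13.9 months, were Mad2(f/f) p53(f/f). Mouse 3760 gave HCC 3760-T2 and liver 3760-L, and mouse 4033 gave HCC 4033-T1, HCC 4033-T2 and liver 4033-L. The f/+ genotype was present in 1 mouse, so genotype, sex, age and animal cannot be told apart. The 15 arrays covered both dye orientations of 7 tissues and 1 orientation of HCC 3760-T2, on 4 slides scanned on 2 days. Probe noise, the robust SD of all autosomal probes around their flanking probes, was 0.0967 to 0.126 in 3 of the 4 tissues of scan day 1 and 0.195 to 0.211 in the tissues of scan day 2. It was 0.229 in HCC 3760-T2.

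The p53 protein, the product of Trp53, is a transcription factor that halts the cell cycle or triggers cell death after DNA damage. Atm senses double-strand breaks and signals through Chek2 to stabilize p53. Mdm2 marks p53 for degradation, Mdm4 blocks its activity, and Cdkn1a, which encodes the cell cycle inhibitor p21, is among its best known targets. aCGH measures DNA copies of these genes and not their expression. In a mixed tissue, fewer cells with a deletion and fewer copies lost per cell cannot be told apart.

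The Trp53 probe lay at chr11:69397121-69397180, as the files give it. The files do not name their genome build, and no genome was used here, so the probe could not be placed in an exon or intron or against the floxed fragment. Its nearest neighbors on the array were 13388 bases apart, with the Trp53 probe between them. The left pair carried the names Wdr79, for which the gene table of RefSeq (GRCm38.p6) gives Wrap53, and AK084182. The right pair carried the names AK084182 and Atp1b2, which encodes a subunit of the sodium-potassium pump. The 4 neighbors lay above the Trp53 probe in every tissue where Trp53 was low, as described below. The probe sequences of the file are given in order along the chromosome, without a strand, to show the stretches compared:
Wdr79, chr11:69391172-69391221: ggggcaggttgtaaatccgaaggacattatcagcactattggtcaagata
AK084182, chr11:69393563-69393622: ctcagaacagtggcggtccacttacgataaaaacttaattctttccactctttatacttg
Trp53, chr11:69397121-69397180: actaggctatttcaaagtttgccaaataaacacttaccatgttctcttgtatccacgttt
AK084182, chr11:69407011-69407070: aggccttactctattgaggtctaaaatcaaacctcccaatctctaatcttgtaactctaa
Atp1b2, chr11:69413278-69413336: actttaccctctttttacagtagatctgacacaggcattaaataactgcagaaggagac

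The G and C content was 35.0% in the Trp53 probe and 36.7% to 44.0% in its neighbors. All 15 Trp53 spots were well above background, and none was saturated or marked as an outlier.

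Trp53, the engineered gene, was low in 4 of 5 HCC and in both p53(f/f) livers, and nearer 0 in HCC 3760-T2 and in the p53(f/+) liver. In mouse 4033 the aCGH ratio was -2.03 in HCC 4033-T1 and -2.07 in HCC 4033-T2, against -0.72 in the liver of that mouse. In mouse 3151 it was -1.14 in HCC 3151-T1 and -1.06 in HCC 3151-T2, against -0.07 in its liver. In mouse 3760 the order was the opposite, with -0.19 in HCC 3760-T2 and -0.88 in the liver. As a share of the reference signal, the 2 HCC of mouse 4033 stood at 24.4% and 23.8%, the 2 HCC of mouse 3151 at 45.4% and 47.9%, and HCC 3760-T2 at 87.9%. The livers of mice 3760 and 4033 stood at 54.4% and 60.5%, and that of mouse 3151 at 95.3%. The array labelled 3760-T2 therefore did not show the low Trp53 signal of the liver with the same p53(f/f) genotype, and its value rests on 1 array.

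**Figure D1:**
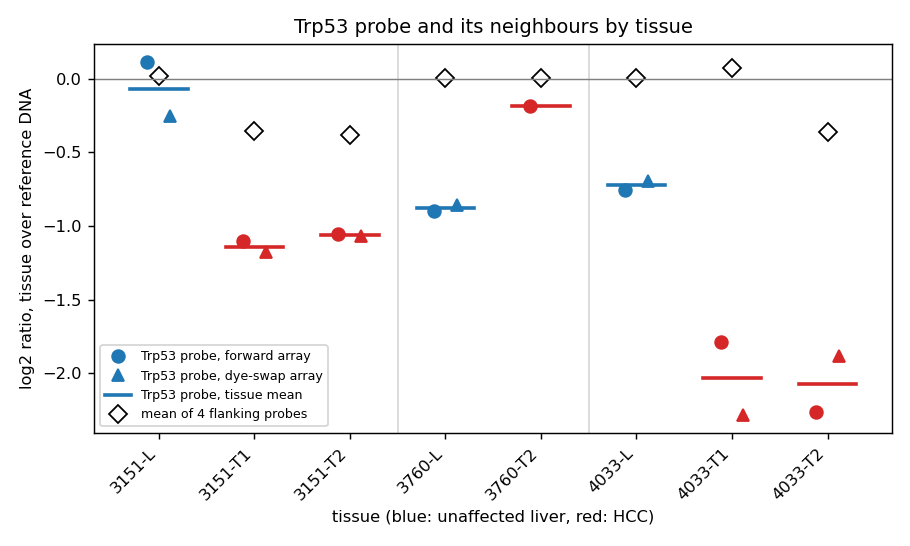
The vertical axis is the aCGH ratio (log2), and the horizontal axis lists the 8 tissues, with unaffected livers in blue and HCC in red. Circles and triangles are the single forward and dye-swap arrays of the Trp53 probe, bars are tissue means, and open diamonds are the mean of the 4 flanking probes. The Trp53 bars of both HCC from mouse 4033 lie near -2.03 and -2.07, while the diamonds of all tissues lie between -0.38 and 0.08.

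Both dye orientations gave the low value in every tissue that had it. The forward and dye-swap arrays read -1.10 and -1.17 in HCC 3151-T1, -1.06 and -1.07 in HCC 3151-T2, and -0.90 and -0.86 in liver 3760-L. They read -1.78 and -2.28 in HCC 4033-T1, -2.26 and -1.88 in HCC 4033-T2, and -0.75 and -0.69 in liver 4033-L. In liver 3151-L they fell on either side of 0, at 0.12 and -0.25. The lowest Trp53 tissue signal on any array was 400 intensity units, in HCC 4033-T1, against 1861 for the reference on the same array.

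Where the Trp53 probe was low, it lay below all 20 of its nearest neighbors. The 4 flanking probes averaged -0.35 in HCC 3151-T1, -0.38 in HCC 3151-T2 and -0.36 in HCC 4033-T2, near the Chr11 medians of -0.22, -0.31 and -0.25 in these 3 HCC. In the other 5 tissues the flanking mean lay between 0.00 and 0.08 and the Chr11 median between -0.01 and 0.10. Relative to its flanking probes Trp53 stood at -2.11 in HCC 4033-T1, -1.71 in HCC 4033-T2, -0.79 in HCC 3151-T1, -0.68 in HCC 3151-T2 and -0.19 in HCC 3760-T2. In the livers it stood at -0.88 in 3760-L, -0.73 in 4033-L and -0.09 in 3151-L. Among the 20 nearest probes, which span 255 kb, 0 were as low as Trp53 in each of the 6 tissues where it was low, while 4 were in liver 3151-L and 8 in HCC 3760-T2.

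**Figure D2:**
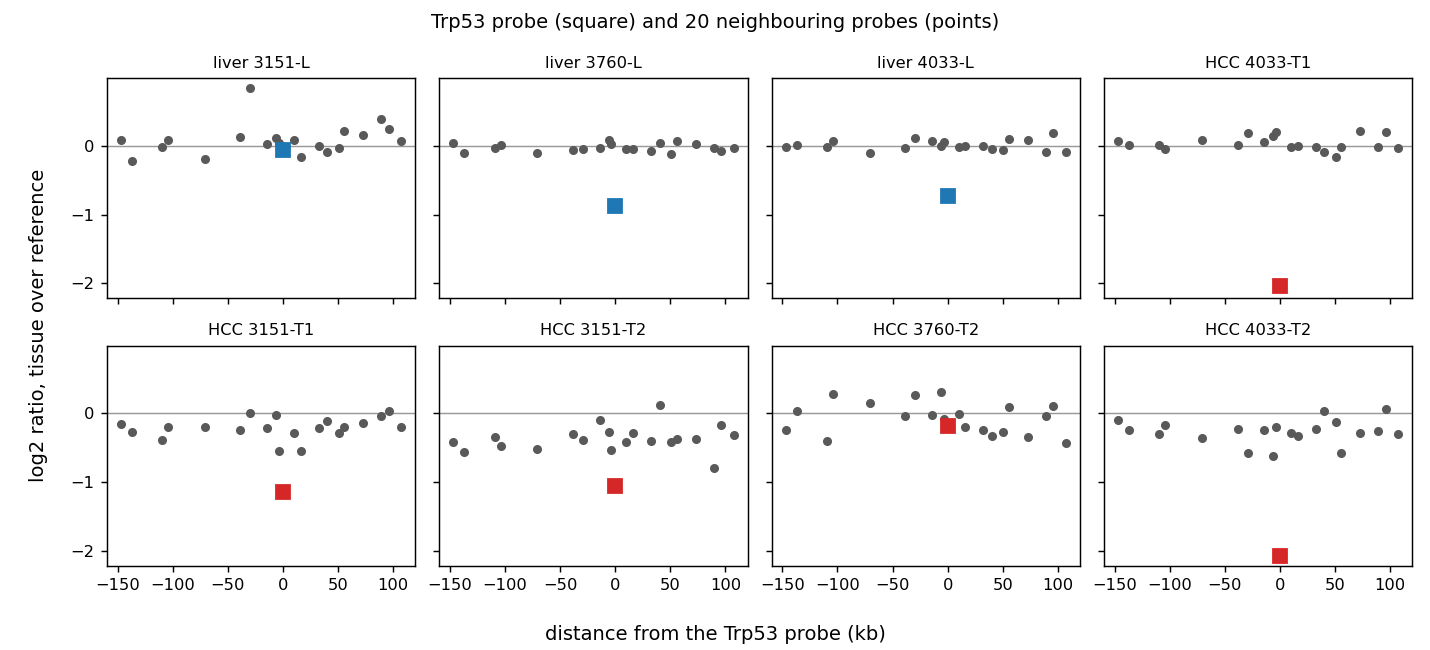
Each panel is 1 tissue. The horizontal axis is the distance from the Trp53 probe in kb, the vertical axis the log2 ratio, the square the Trp53 probe and the points its 20 neighbors. The square lies below every point in 6 tissues and among the points in liver 3151-L and HCC 3760-T2.

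The size of the drop was read against all autosomal probes of the same tissue. In HCC 4033-T1 28 of 40726 probes were as far below their own flanking probes as Trp53, and in HCC 4033-T2 35 were. The counts were 89 in liver 3760-L, 169 in liver 4033-L, 254 in HCC 3151-T1 and 432 in HCC 3151-T2, which is 1.06% of probes in the last. In liver 3151-L 31.5% of probes were at least as low and in HCC 3760-T2 20.2%, so the Trp53 probe did not stand apart in either. In units of probe noise Trp53 lay 16.8 below its flanks in HCC 4033-T1 and 8.57 below in liver 3760-L, but 0.442 below in liver 3151-L.

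By genotype, the p53(f/f) livers lay at -0.88 and -0.72 and the p53(f/+) liver at -0.07. The p53(f/f) HCC lay at -2.07, -2.03 and -0.19 and the p53(f/+) HCC at -1.14 and -1.06. The lowest 2 values were thus p53(f/f) HCC and the highest a p53(f/+) liver, while HCC 3760-T2 stood above both p53(f/+) HCC. With 1 p53(f/+) mouse no test of genotype was made. For scale, the mean of the X probes, where tissue and reference differ by 1 copy in these sex-mismatched hybridizations, was -0.87 in liver 3760-L, -0.92 in liver 4033-L and 0.88 in liver 3151-L.

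To ask whether HCC carried less Trp53 DNA than unaffected liver, the 2 groups were compared. The HCC averaged -1.30 ± 0.78 (SD, n = 5), and the livers averaged -0.56 ± 0.43 (SD, n = 3). The difference of -0.74 did not exceed the spread between tissues (two-sided exact permutation p = 0.161; the smallest p that 56 splits give is 0.0179). Relative to the flanking probes the difference was -0.53 (exact permutation p = 0.339), and relative to the Chr11 median it was -0.61 (exact permutation p = 0.214). Across all autosomal probes, limma gave Trp53 a difference of -0.74 with an SE of 0.35 and an adjusted p of 0.682. Without HCC 3760-T2 the difference was -1.02 (exact permutation p = 0.0857, limma adjusted p = 0.220), and the 4 other HCC, from -2.07 to -1.06, lay below all 3 livers, from -0.88 to -0.07. These fits took tissues of 1 mouse as separate samples. With the replicate block by mouse, the difference was -0.56 (exact permutation p = 0.333, smallest possible 0.0556), and mouse 3760 went the opposite way. Limma with that block gave Trp53 a difference of -0.67 with an unadjusted p of 0.00505 (0.0704 chromosome-centered) and an adjusted p of 0.380.

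Within animals, Trp53 lay below the liver of the same mouse in 4 of 5 HCC. At least 4 of 5 HCC lay below own liver at 25.3% of autosomal probes, and at 20.3% relative to flanking probes, so the direction alone was common. The differences were -1.31 and -1.35 in mouse 4033, -1.07 and -0.99 in mouse 3151, and 0.69 in mouse 3760. Relative to the flanking probes they were -1.38 in HCC 4033-T1, -0.98 in HCC 4033-T2, -0.70 in HCC 3151-T1, -0.59 in HCC 3151-T2 and 0.69 in HCC 3760-T2. A fall of at least 0.5 against own liver on that scale in 4 of 5 HCC was met by 3 of 40726 probes, or 0.00737%, and the other two were Krt5, a keratin gene on Chr15, and AK154497 on Chr17. That criterion and these 3 names were chosen after the Trp53 values were known, so the count is a description. Without HCC 3760-T2 the same 3 probes (0.00737%) met it in 4 of 4 HCC. Each had failed only in HCC 3760-T2, at 0.69, 0.29 and 0.29, so this count adds nothing to the first.

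On scan day 1, with 2 HCC and 2 livers, all p53(f/f) and with HCC 3760-T2 among them, HCC minus liver was -0.31. On scan day 2, with 3 HCC and the p53(f/+) liver alone, it was -1.35. Mouse 3760 was hybridized only on day 1 and mouse 3151 only on day 2. Between these mice scan day, mouse and genotype cannot be told apart. Mouse 4033 was hybridized on both days, with Trp53 at -2.03 in HCC 4033-T1 on day 1 and -2.07 in HCC 4033-T2 on day 2. Its liver was hybridized on day 1 only. The smallest exact permutation p that a day allows is 0.25. Slides 1, 2 and 3 held 1 HCC and 1 liver each, and HCC minus liver was 0.69, -1.31 and -2.0 within them. The pair on slide 3 came from different mice, HCC 4033-T2 and liver 3151-L.

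The probe of Mad2l1, the other engineered gene, was low in both HCC of mouse 3151, as Trp53 was, and above 0 in both HCC of mouse 4033, where Trp53 was lowest. Its aCGH ratio was -0.71 and -1.22 in HCC 3151-T1 and 3151-T2, 0.59 and 0.53 in HCC 4033-T1 and 4033-T2, and 0.08 in HCC 3760-T2. The livers were at 0.01 in mouse 3151, 0.69 in mouse 4033 and 0.36 in mouse 3760, so Mad2l1 lay below own liver in 5 of 5 HCC, and in 4 of 5 relative to flanking probes. Its place against the floxed part of Mad2l1 was not checked.

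Of Atm and Chek2, the kinases upstream of p53, 1 Chek2 probe lay past 0.5 from its flanking probes in 1 HCC, and the 3 Atm probes did so in none of the 8 tissues. The mean of the 3 Atm probes, on Chr9, ranged from -0.40 in HCC 4033-T2 to 0.08 in HCC 3151-T1, and the livers lay between -0.12 and 0.06. The HCC and liver means differed by -0.05 (exact permutation p = 0.804) and 0.06 relative to flanking probes (exact permutation p = 0.571). The mean of the 2 Chek2 probes, on Chr5, ranged from -0.30 in HCC 3151-T1 to 0.32 in HCC 4033-T1, and the livers lay between -0.06 and 0.01. HCC minus liver was 0.11 (exact permutation p = 0.482) and 0.0029 relative to flanking probes (exact permutation p = 0.982). In HCC 3151-T1 the Chek2 probes disagreed, with -0.52 at one and -0.08 at the other. Relative to flanking probes they lay at -0.54 and -0.10, and 1 Atm probe lay at -0.41 in the same HCC.

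Chek2 in HCC 4033-T1 and Atm in HCC 3760-T2 showed how far the chromosome level enters a probe. In HCC 4033-T1 the Chek2 mean of 0.32 stood beside a Chr5 median of 0.38. In HCC 3760-T2 the Atm mean of -0.13 stood beside a Chr9 median of -0.29, and relative to flanking probes it was 0.17. The 3 Atm probes lay between -0.41 and 0.27 from their flanking probes over the 8 tissues. All 3 shared the same 4 neighbors, as did the probes of each other gene with more than 1.

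Where Mdm2 and Mdm4, the inhibitors of p53, departed from 0 in an HCC, their flanking probes departed too. The mean of the 2 Mdm2 probes, on Chr10, was -0.05 in both HCC of mouse 3151, 0.23 in HCC 3760-T2, -0.58 in HCC 4033-T1 and -0.07 in HCC 4033-T2. The livers were at 0.09, -0.05 and -0.03. Only HCC 4033-T1 was low among the 8 tissues, and its Chr10 median was -0.55. Its Mdm2 probes read -0.63 and -0.52, its flanking probes averaged -0.57, and the mean relative to flanks was -0.0041. The group difference was -0.11 (exact permutation p = 0.625) and -0.17 relative to flanking probes (exact permutation p = 0.214).

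The mean of the 2 Mdm4 probes, on Chr1, was lowest in HCC 3151-T1 at -0.31 and highest in HCC 4033-T1 at 0.21, while the livers lay between -0.03 and 0.06. The Chr1 median was 0.33 in HCC 4033-T1 and 0.08 in HCC 3151-T1. Relative to flanking probes, the Mdm4 mean stayed between -0.10 and 0.11 in all 8 tissues, the narrowest range of the 8 genes. These are means over both dye orientations, which lay far apart at 1 Mdm4 probe. That probe read -0.81 forward and 0.81 on the dye swap in HCC 3151-T2, and -0.59 and 0.35 in HCC 4033-T2. HCC minus liver was -0.05 (exact permutation p = 0.75) and 0.0067 relative to flanking probes (exact permutation p = 0.929). The Mdm4 probes lay 72910 to 101015 bases from their nearest neighbors, so a change smaller than that span would rest on these 2 probes.

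**Figure D3:**
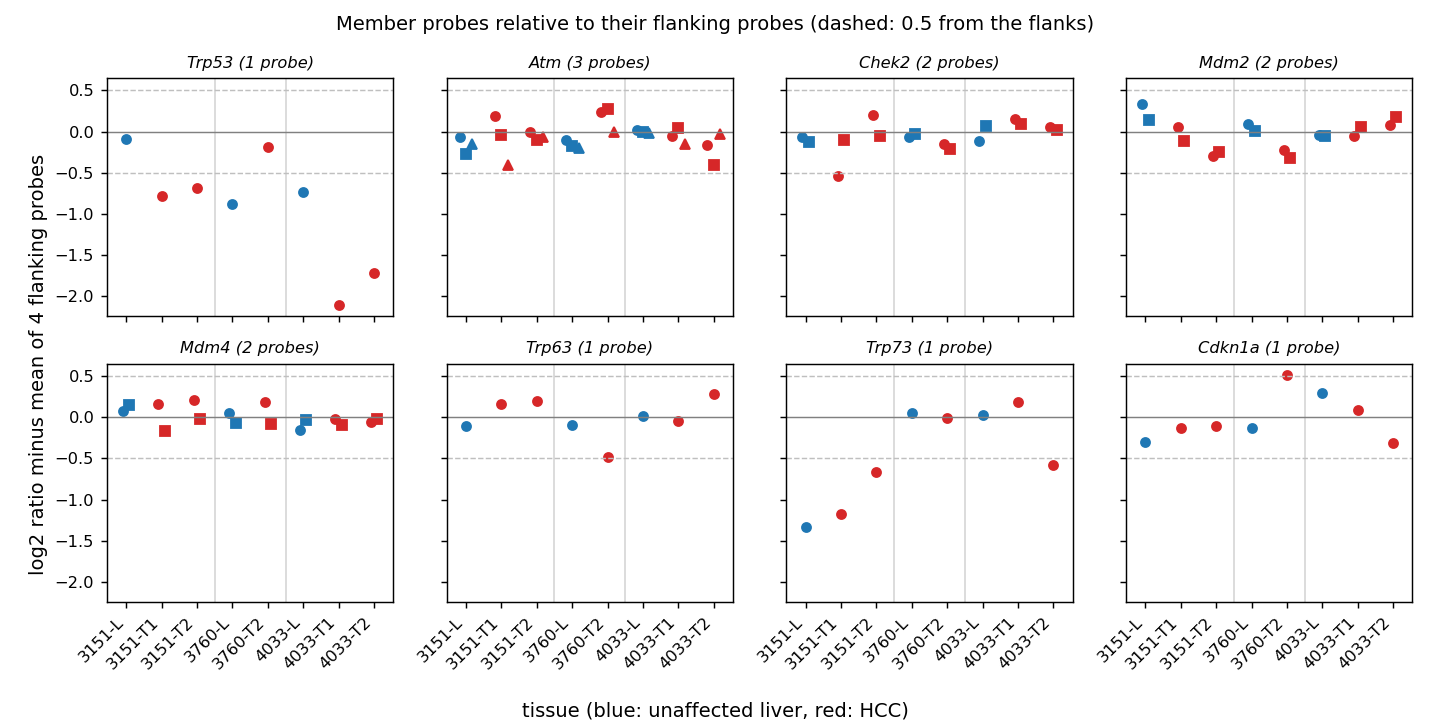
Each panel is 1 gene, the horizontal axis lists the 8 tissues, and the vertical axis is the log2 ratio minus the mean of the 4 flanking probes. Each symbol is 1 probe (blue for liver, red for HCC), and dashed lines mark 0.5 above and below the flanks. Trp53 reaches -2.11 and Trp73 -1.34, whereas all probes of Atm, Mdm2 and Mdm4 stay within the dashed lines.

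Trp63 and Trp73 encode p63 and p73, which share the DNA-binding domain of p53. The Trp63 probe, on Chr16, was at 0.54 and 0.41 in the HCC of mouse 3151, -0.03 in HCC 3760-T2, and 0.11 and 0.34 in HCC 4033-T1 and 4033-T2. The livers were at 0.10, -0.04 and 0.05. Trp63 lay above own liver in 5 of 5 HCC, by 0.0047 to 0.44, as did 8.34% of autosomal probes. The difference between HCC and liver was 0.24 (exact permutation p = 0.125). Relative to flanking probes it was 0.09 (exact permutation p = 0.661), with 3 HCC above own liver and 2 below. The Chr16 median was 0.39 in HCC 3151-T1 and 0.28 in HCC 3760-T2, where Trp63 minus its flanking probes was 0.15 and -0.48.

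Trp73 was low in 4 tissues that shared a scan day, a liver among them. The Trp73 probe, on Chr4, was at -1.37 in HCC 3151-T1, -1.03 in HCC 3151-T2, -1.39 in liver 3151-L and -0.90 in HCC 4033-T2, all of scan day 2. On scan day 1 it was at -0.07 in HCC 3760-T2, -0.11 in liver 3760-L, -0.25 in HCC 4033-T1 and -0.03 in liver 4033-L. The tissues of the days did not overlap, and HCC 4033-T2 and 4033-T1 of the same mouse fell on different sides. Such a pattern, with every tissue of day 2 at least 0.5 below every tissue of day 1, was met by 14 of 40726 probes (0.0344%). It was looked for after the Trp73 values were seen. Mouse 3151 was hybridized only on slides of day 2, and the part of scan day in the Trp73 values was not tested.

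The single arrays of Trp73 disagreed where it was low. The forward arrays gave -2.01, -2.11 and -2.04 in HCC 3151-T1, HCC 3151-T2 and liver 3151-L, and the dye-swap arrays of the same DNA gave -0.72, 0.05 and -0.73. The difference of 2.17 between the orientations of HCC 3151-T2 was the largest of the 13 probes, whose median difference in size was 0.231. The Trp73 signals were dim, with a lowest tissue signal of 87.7 intensity units, and 2 of 15 Trp73 spots were not well above background. Only 1 of the 45 Atm spots and none of the other genes' spots shared that mark. For Trp73, HCC minus liver was -0.22 (exact permutation p = 0.75) and -0.03 relative to flanking probes (exact permutation p = 0.946). With normexp in place of the processed signals the difference turned to 0.07, and within scan day 2 to 0.29.

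The sequence of the Trp73 probe is given because it is the other member probe, beside Trp53, that fell at least 0.5 below its flanking probes in more than 1 tissue. Its G and C content was 36.7%, and its nearest neighbors were 87521 bases apart:
Trp73, chr4:153476154-153476213: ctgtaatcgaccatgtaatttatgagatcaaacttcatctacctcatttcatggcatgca

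Cdkn1a lay just past 0.5 from its flanking probes in 1 HCC, which had 1 array and a probe noise of 0.229. Its probe was at -0.49 in HCC 3151-T1, -0.68 in HCC 3151-T2, 0.59 in HCC 3760-T2, 0.09 in HCC 4033-T1 and -0.92 in HCC 4033-T2. The livers were at -0.42, -0.19 and 0.24, within the range of the HCC. Relative to flanking probes only HCC 3760-T2, with 1 array, lay past 0.5, at 0.51, and the other 7 tissues lay between -0.31 and 0.29. The flanking mean of HCC 4033-T2 was itself -0.61. HCC minus liver was -0.16 (exact permutation p = 0.714) and 0.06 relative to flanking probes (exact permutation p = 0.804). The orientations of the Cdkn1a probe also disagreed, with -1.69 forward and -0.15 on the dye swap in HCC 4033-T2, and -1.28 and 0.44 in liver 3151-L. On scan day 1 the forward array read higher in each tissue that had both orientations. The pairs were 0.74 and -0.56 in HCC 4033-T1, 0.10 and -0.48 in liver 3760-L, and 0.41 and 0.06 in liver 4033-L. HCC 3760-T2, also of scan day 1, had a forward array alone.

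**Figure D4:**
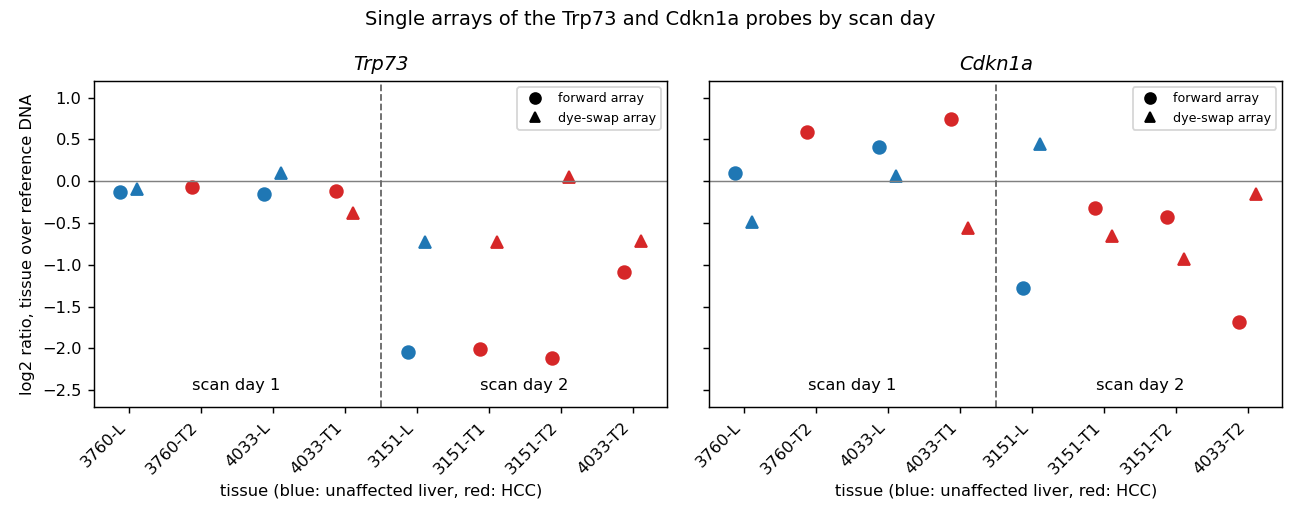
The vertical axis is the log2 ratio of single arrays for the Trp73 probe (left) and the Cdkn1a probe (right), and the horizontal axis lists the tissues by scan day, with livers in blue and HCC in red. Circles are forward and triangles dye-swap arrays. The Trp73 arrays of day 1 lie between -0.38 and 0.10, and those of day 2 between -2.11 and 0.05.

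Taking all 13 member probes in each tissue, the number at least 0.5 below its flanking probes was 3 in HCC 3151-T1 (Trp53, Trp73 and 1 Chek2 probe), where 2.11% of all probes were. It was 2 in HCC 3151-T2 and 2 in HCC 4033-T2 (Trp53 and Trp73 in both), where 2.92% and 3.23% of all probes were. It was 1 in HCC 4033-T1 (Trp53) and 0 in HCC 3760-T2, where 1.14% and 2.20% of all probes were. In the livers it was Trp53 in 3760-L and 4033-L, where 0.685% and 0.744% were, and Trp73 in 3151-L, where 2.63% were. At least 0.5 above its flanking probes lay 1 member probe in 1 tissue, Cdkn1a in HCC 3760-T2, where 2.74% of all probes were.

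Across the groups, no member separated HCC from liver, and neither did most autosomal probes. The HCC and liver ranges overlapped at all 13 member probes, while they did not overlap at 8.52% of autosomal probes, and at 1.92% and 0 member probes relative to flanking probes. Limma called 0 of 40726 probes (0%) at an adjusted p of 0.05, with the aCGH ratio and with the chromosome median subtracted. At an unadjusted p of 0.05 it called 3012 probes (7.40%) and 625 probes (1.53%), and 0 of the 13 member probes in both. The unadjusted p of Trp53 was 0.0540 in this fit. It was 0.00505 with the replicate block by mouse, 0.00880 with slide as a block, 0.00298 without HCC 3760-T2 and 0.0354 without liver 3760-L. Chromosome-centered, the limma unadjusted p of these runs was 0.0704, 0.0637, 0.0369 and 0.133. In the other alternative runs that of the aCGH ratio lay between 0.0547 and 0.220. Trp63 also passed without HCC 3760-T2, and Trp73 without liver 3151-L, and 0 members passed after adjustment in any alternative run. The exact permutation test passed an unadjusted 0.05 at 7.19% of probes (1.64% relative to flanking probes) and at 0 member probes on both scales. Limma was also run on simulated data of the same size, with noise drawn independently for each tissue and 200 probes shifted at once. It recovered 0% of the probes shifted by -0.5, 66.0% of those shifted by -1 and 100% of those shifted by -2. The real tissues share mice and slides, so these shares do not give the power for 1 probe in them.

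The remaining genes of the p53 pathway were read from a list of 44 genes in 5 roles, of which 40 had autosomal probes (77 in all), 5 of them under an older name. Limma called 0 of the 77 probes higher and 0 lower, against 0% of all probes. At an unadjusted p of 0.05 it called 6 of 77 for the aCGH ratio and 0 of 77 once the chromosome median was subtracted, against 7.40% and 1.53% of all probes. The median HCC minus liver was -0.0043 over the list and -0.0011 over all autosomal probes, and -0.0090 and -0.0020 relative to the chromosome median. By role, the median relative to the chromosome was -0.0046 for the DNA damage sensors and kinases (6 genes with probes), -0.03 for the modifiers of p53 (9), 0.06 for the targets in cell cycle arrest (5), -0.05 for the targets in apoptosis (10) and 0.05 for the targets in repair, metabolism and feedback (10).

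The largest differences of the list lay on Chr15. Rrm2b, a ribonucleotide reductase subunit induced by p53, differed by 0.62 between HCC and liver (exact permutation p = 0.0179, the smallest that 56 splits give). Gtse1, which moves p53 out of the nucleus, differed by 0.58 (exact permutation p = 0.0179), and Ep300, an acetyltransferase and coactivator of p53, by 0.44 (exact permutation p = 0.0357). With the replicate block by mouse they differed by 0.62, 0.54 and 0.41 (exact permutation p = 0.0556 for each, the smallest that 18 arrangements within 3 mice give). Relative to the Chr15 median these came to 0.16, 0.11 and -0.03, with exact permutation p of 0.0714, 0.125 and 0.375. On that scale Rrm2b passed an unadjusted 0.05 in 3 of 17 alternatives (0.12 to 0.18, lowest exact permutation p = 0.0286), and Ep300 in 1, without HCC 4033-T1 (-0.050, exact permutation p = 0.0286). Ep300 lost its unadjusted p under 0.05 without any one of 6 tissues (exact permutation p = 0.0571 or 0.0952), with differences of 0.40 to 0.49, and the limma adjusted p of all 3 genes did not pass the threshold.

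Relative to the chromosome median, the 6 genes of the list farthest from 0 were Rrm2b at 0.16, Pmaip1 at -0.15, Rad50 at -0.14, Bbc3 at -0.11, Gtse1 at 0.11 and Phlda3 at -0.11. Pmaip1 and Bbc3 encode the cell death proteins Noxa and Puma, Rad50 is part of a complex that binds broken DNA ends, and Phlda3 restrains Akt signaling. Their exact permutation p ranged from 0.0714 to 0.411. Trp53 itself, on the same scale, differed by -0.61.

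**Figure D5:**
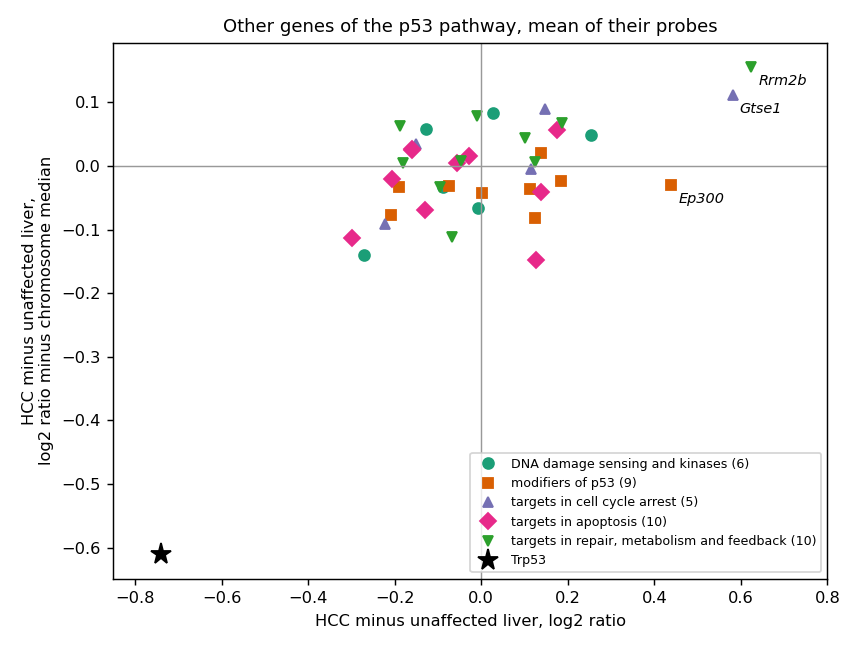
Each symbol is 1 of the 40 listed genes, by role, with Trp53 as a star. The horizontal axis is HCC minus liver in log2 ratio, and the vertical axis the same after subtraction of the chromosome median. The listed genes lie between -0.15 and 0.16 on the vertical axis and Trp53 at -0.61, and Rrm2b, Gtse1 and Ep300 lie farthest to the right.

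Among probes with a gene name, 4 elsewhere were most like the Trp53 probe in their pattern over the 8 tissues, relative to the chromosome. They were Rusc2 (Pearson r = 0.982) and Wdtc1 (0.979) on Chr4, AK020194 (0.979) on Chr13 and Oaz2 (0.976) on Chr9. Oaz2, an inhibitor of ornithine decarboxylase, was at -1.01 in HCC 4033-T1 and -0.75 in HCC 4033-T2, and Rusc2 at -0.78 and -0.56. Among the members, Chek2 was nearest to Trp53 (r = 0.723) and Trp63 farthest (r = -0.43). These r describe 8 tissues that share 3 mice, 4 slides and 2 scan days. The 4 probes were the highest of all those searched that carry a gene name, and probes without one were not ranked.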

How the data were processed

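Genomic DNA of 8 liver tissues was measured on 15 two-color arrays. Per the file headers, the authors made the intensity values with Agilent Feature Extraction 9.1.3.1 (background-subtracted, detrended, dye-normalized). The log10 values that the authors deposited as a series table are the LogRatio of each array, sign-turned for dye swaps, and were used only for that check.

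The log2 of tissue over reference was computed from the processed intensities. Control and outlier spots were left out, each array was centered on its autosomal median without loess, and both orientations were averaged to 1 replicate. Flanking probes are the 2 nearest on either side without the same gene name. HCC and liver were compared by exact permutation of the mean difference (two-sided, 56 splits) and by limma 3.58.1 (lmFit, eBayes, Benjamini-Hochberg adjustment over 40726 probes) in R 4.3.3. Values used Python 3.11.15, numpy 2.4.6 and pandas 2.3.3. The steps were tested on simulated data. Signal over background, 3.72 to 7.95, and the number of tissues limit the precision.

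Tissues of one mouse pair the groups. Probe by probe, an HCC and its own liver deviated together from their groups (r = 0.126 to 0.288). Alternatives were normexp, mode centering, loess, forward arrays, removal of dim spots, omission of each tissue, mouse and slide blocks, scan days, 5 flanking probes and the chromosome median.

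The members and lists were chosen with earlier results of these data known. Named were the 8 members, their neighbors, Mad2l1, the 6 listed genes farthest from their chromosome and the 4 named probes most like Trp53. Rrm2b, Gtse1 and Ep300 were also named for their unadjusted p, and Krt5 and AK154497 after their values were seen. The gene table did not change member names.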

Additional observations from a re-analysis of the deposited data

Results flagged for a closer look

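Atm went opposite ways in the mice with 1 and with 2 floxed Trp53 alleles. HCC minus own liver, as the mean of 3 probes, was 0.20 and 0.14 in mouse 3151 and -0.07, -0.07 and -0.45 in mice 3760 and 4033, a difference of 0.36 between the means. The Chr9 median minus that of own liver went the same way, and relative to flanking probes the values were 0.08, 0.11, 0.32, -0.05 and -0.20, no longer opposite. Opposite signs by genotype were seen at 6.84% of autosomal probes and at 1 of the 13 member probes, an Atm probe.

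Mdm4 relative to flanking probes was -0.12 and -0.02 against own liver in mouse 3151 and 0.06, 0.04 and 0.05 in mice 3760 and 4033, a difference of -0.12. Opposite signs on that scale were seen at 6.62% of autosomal probes and at 0 of the 13 member probes. The Mdm4 values are means of 2 probes. Taken singly, 1 probe lay above own liver in every HCC, by 0.082 to 0.14, and the other lay between -0.32 and 0.010. Neither difference was tested, and genotype, sex and animal cannot be told apart. No single HCC stood apart from the other 4 by Dixon's test in any of 16 measures (8 genes, each with and without subtraction of the flanks).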

How the results depend on the processing

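Trp53 stayed lower in HCC in 17 alternatives (-1.35 to -0.31, exact permutation p from 0.0857 to 1) and in 19 relative to flanking probes (-0.97 to -0.27, exact permutation p from 0.214 to 1), past the threshold in none. Some of these could not pass it: the mouse block has 18 arrangements, the slide block 8, and scan days 1 and 2 have 6 and 4 splits. Limma called 0 probes and 0 of the pathway list in all 15 alternatives run, with 1480 to 5091 probes at an unadjusted p of 0.05 (241 to 1658 chromosome-centered). With the replicate block by mouse, the Trp53 difference was -0.56 (exact permutation p = 0.333), or -0.38 on the flank scale (exact permutation p = 0.444), and limma gave -0.67 (adjusted p = 0.380). The smallest exact p within 3 mice is 0.0556, so the block ended the unadjusted calls of Rrm2b, Gtse1 and Ep300 by its construction. Across all probes it changed 0 adjusted calls and brought Trp53 to an unadjusted limma p of 0.00505 (0.0704 chromosome-centered). Mode centering shifted all probes by -0.25 in HCC 4033-T1, -0.12 in HCC 3151-T2 and 0.11 in HCC 3151-T1. The 7 other genes passed the exact test in 0 cases under every alternative run, but no gene could pass with the blocks or within a scan day. With the replicate block by mouse, the Trp63 aCGH ratio differed by 0.19, at the smallest p possible there (exact permutation p = 0.0556).

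Values short of the threshold turned sign as follows, and the cause was not tested. With normexp, the aCGH ratio gave Mdm4 0.0047 and Trp73 0.073 and the flank scale gave Chek2 -0.0017 and Trp73 0.19. With loess, the flank scale gave Chek2 -0.0054 and Trp73 0.095. With forward arrays only, the aCGH ratio gave Atm 0.062, Chek2 -0.0024 and Cdkn1a 0.036 and the flank scale gave Mdm4 -0.15, Chek2 -0.14 and Trp63 -0.11. Without dim and saturated spots, Chek2 was -0.0066 relative to flanks, and with the replicate block Chek2 was -0.018 and Trp73 0.041. With slide as a block, the aCGH ratio gave Mdm4 0.076, Trp73 0.10 and Cdkn1a 0.045 and the flank scale gave Mdm4 -0.018, Trp63 -0.016 and Trp73 0.28. On scan day 1, the aCGH ratio gave Mdm4 0.18 and Cdkn1a 0.32 and the flank scale gave Trp63 -0.22 and Trp73 0.044. On scan day 2, the aCGH ratio gave Atm 0.019, Chek2 -0.042 and Trp73 0.29 and the flank scale gave Mdm4 -0.099 and Trp73 0.53. On the chromosome-median scale, Rrm2b passed an unadjusted 0.05 with loess (0.18, exact permutation p = 0.0357) and without HCC 3151-T2 (0.13) or HCC 3760-T2 (0.12, exact permutation p = 0.0286 for both), and Ep300 without HCC 4033-T1 (-0.050). Relative to the chromosome median, Bbc3 was 0.020 with slide as a block and 0.028 on scan day 1, and Ep300 was 0.0086 with loess, 0.0020 with forward arrays and 0.018 on scan day 1. With 5 flanking probes Mdm4 was -0.047 and Chek2 -0.044, and with the chromosome median in place of flanks Mdm4 was -0.092 and Chek2 -0.039.

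Leaving out 1 tissue at a time, the aCGH ratio differed by -1.02 to -0.50 for Trp53, -0.19 to 0.0082 for Mdm2, -0.11 to 0.023 for Mdm4, -0.089 to 0.028 for Atm, 0.055 to 0.21 for Chek2, 0.17 to 0.31 for Trp63, -0.66 to 0.026 for Trp73 and -0.37 to 0.024 for Cdkn1a. Relative to flanks the ranges were -0.75 to -0.27 for Trp53, -0.23 to -0.091 for Mdm2, -0.043 to 0.063 for Mdm4, 0.0087 to 0.11 for Atm, -0.042 to 0.070 for Chek2, 0.022 to 0.21 for Trp63, -0.49 to 0.20 for Trp73 and -0.067 to 0.23 for Cdkn1a. Without HCC 4033-T1 the Trp53 difference relative to flanks was -0.27, and without liver 3151-L it was -0.29, each under the -0.53 of all tissues by more than 1.5 times. Trp53, Trp63, Trp73 and Cdkn1a rest on 1 probe each.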
